A study of Mus musculus with 16 samples.

Results

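Rest and 9 genes of its corepressor complexes were followed across 4 groups of mouse cortical neurons. The 10 members, Rest, Rcor1, Rcor2, Rcor3, Kdm1a, Hdac1, Hdac2, Sin3a, Sin3b and Ehmt2, were taken by gene symbol from the 41388 genes of the count tables, and all 10 passed the filter on low counts that left 15103 genes for testing. The cells were primary cortical neurons of Swiss Webster embryos at embryonic day 16. On day 5 in vitro every culture received a lentivirus expressing exon 1 of huntingtin (Htt) and a second one expressing an shRNA (a hairpin RNA that knocks down its target), and cells were harvested on day 10. The exon encoded 25 glutamines (25Q, wild type) or 72 glutamines (72Q, mutant). The 25Q group received a luciferase control shRNA, and the 3 groups of 72Q received that control, Twist1 shRNA 1 or Twist1 shRNA 2, with n = 4 libraries in each group. No 25Q culture received a Twist1 shRNA, and all cultures overexpressed a fragment of huntingtin from a virus. Experiments exp107, exp108, exp109a and exp109b each held 1 library of every group, and values listed by experiment follow that order.

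REST is a zinc-finger repressor that binds a DNA element, RE1, in many neuronal genes and keeps them silent outside neurons. The N-terminal part of the protein recruits SIN3 (Sin3a or Sin3b) with the histone deacetylases HDAC1 and HDAC2. The C-terminal part recruits CoREST (encoded by Rcor1 and its relatives Rcor2 and Rcor3), which holds the demethylase LSD1 (Kdm1a) beside the same deacetylases, and the histone methyltransferase G9a (Ehmt2) joins the complex. REST is low in mature neurons. Wild-type huntingtin is known to keep REST in the cytoplasm, a hold that the mutant protein loosens. Transcript levels carry no information on where the protein is.

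Total counts were 15814525 to 19533034 per library. Twist1 stood at 0 to 0.55 CPM (read counts relative to library size, scaled by TMM) in 25Q libraries and 3.29 to 5.08 CPM in 72Q control libraries. It was at 0.904 to 1.87 CPM with shRNA 1 and 1.29 to 2.19 CPM with shRNA 2, below every 72Q control library. All 10 neuron markers were detected. The summed level of the microglia list was 21.3 to 30.6 CPM and that of the endothelial, mural and meningeal list 11.5 to 30.2 CPM, and Tmem119, C1qb, Cldn5 and Cdh5 averaged under 1 count a library. Astrocyte markers summed to 2260 to 3120 CPM. In such bulk samples, fewer cells of a type and less RNA per cell cannot be told apart.

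Per kilobase of gene model, the 10 genes covered a wide range of levels, and Rest lay near the bottom. In 25Q neurons Sin3b was highest at 43.4 ± 2.24 CPM per kilobase (SD, n = 4). Hdac2 followed at 29.4 ± 0.655, Ehmt2 at 27.5 ± 0.523 and Kdm1a at 20.2 ± 0.807 CPM per kilobase. Sin3a at 11.2 ± 0.86 and Rcor2 at 9.97 ± 0.791 CPM per kilobase were the only neighbours in this order whose libraries overlapped. Below them stood Rcor3 at 8.07 ± 0.533, Rcor1 at 5.59 ± 0.749, Rest at 1.72 ± 0.134 and Hdac1 at 0.636 ± 0.16 CPM per kilobase. The order changed with the group for Ehmt2 and the Rcor genes. In 72Q control neurons Rcor3, at 10.1 to 11.1 CPM per kilobase, lay above Rcor2 at 6.57 to 7.91. With shRNA 1 Ehmt2 came down to 18.1 to 19.4 CPM per kilobase, inside the 16.4 to 20.3 of Kdm1a, and with shRNA 2 it stood at 26.3 to 28.8, at or above the 22.5 to 26.3 of Hdac2.

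**Figure D1:**
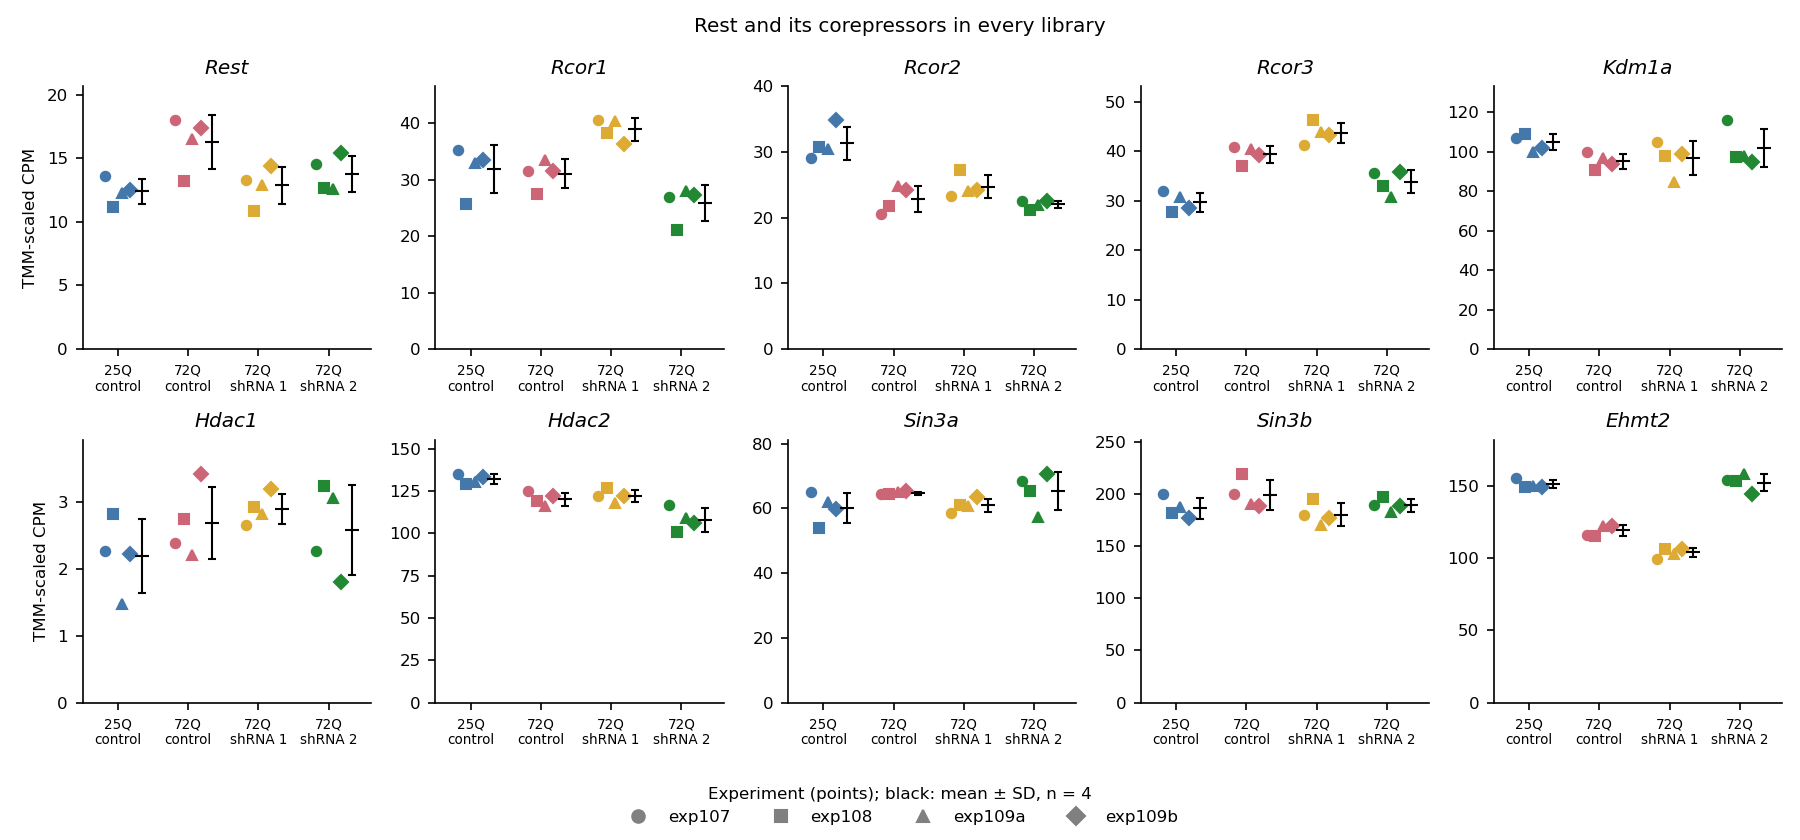
TMM-scaled CPM (y axis, from 0) of the 10 genes in each library, by group (x axis). Symbols mark the experiment and black bars the mean ± SD of n = 4 libraries. Ehmt2 was lower in 72Q control and shRNA 1 libraries (99.5 to 122 CPM) than in 25Q and shRNA 2 libraries (144 to 158 CPM), while Hdac1 stayed under 4 CPM throughout.

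Rest was higher in neurons with the mutant exon than in those with the wild-type exon, as was Rcor3, while Rcor2, Ehmt2, Kdm1a and Hdac2 were lower. Of the 10 members, 6 passed an adjusted p of 0.05 between 72Q and 25Q with the control shRNA, 2 higher and 4 lower. That share must be read against 57.1% of all genes tested, 29.3% higher and 27.8% lower, so it is near the background of this comparison. Without scaling beyond library totals the share of called genes that were higher went from 51.4% to 69.7%, and the median log2 fold change of all genes from 0.03 to 0.16. The split of the 6 members called then turned from 2 higher and 4 lower to 4 higher and 2 lower, as it did with upper-quartile factors, Sin3a and Sin3b taking the place of Kdm1a and Hdac2. The share of counts from mitochondrial genes also differed between these groups without overlap, at 2.41 to 2.78% in 25Q and 3.16 to 3.59% in 72Q control libraries, and its part in the changes was not tested.

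Rest (ENSMUSG00000029249, chr5:77265491-77286432 of GRCm38, plus strand) stood at 13.6, 11.2, 12.3 and 12.5 CPM in the 25Q libraries and at 18, 13.2, 16.5 and 17.4 CPM in the 72Q control libraries, from 184 to 338 reads each. The groups overlapped, because the 72Q library of exp108 lay below the 25Q library of exp107, but within each of the 4 experiments the 72Q library was higher. The log2 fold change was 0.39 ± 0.079 (SE, 95% interval 0.23 to 0.55, adjusted p = 0.000101), a 1.31-fold level.

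Per kilobase of gene model, the CoREST genes Rcor2 and Rcor3 exchanged places (plot of the Rcor genes per kilobase). That order depends on the gene-model lengths, 3135 bases for Rcor2 and 3681 for Rcor3. In CPM the 25Q libraries of these genes overlapped. Rcor2 (ENSMUSG00000024968, chr19:7267325-7275225, plus strand) stood at 29, 30.7, 30.5 and 34.8 CPM in 25Q and 20.6, 21.8, 24.8 and 24.2 CPM in 72Q control libraries, with no overlap. It fell by 0.45 ± 0.068 on the log2 scale (adjusted p = 1.66e-06). Rcor3 (ENSMUSG00000037395, chr1:192098656-192138010, minus strand) stood at 31.9, 27.7, 30.7 and 28.5 CPM and then 40.8, 37.1, 40.5 and 39.2 CPM, again with no overlap. It rose by 0.41 ± 0.064 on the log2 scale (adjusted p = 2.59e-06). Rcor1 (ENSMUSG00000037896, chr12:111039351-111115901, plus strand), the founding CoREST gene, was at 25.6 to 35.2 CPM in 25Q and 27.4 to 33.5 CPM in 72Q libraries. Its log2 fold change was -0.03 ± 0.066, with an interval of -0.17 to 0.1 (adjusted p = 0.714).

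The 3 Rcor genes summed per kilobase came to 23.6 ± 1.25 CPM in 25Q neurons and 23.5 ± 1.25 CPM in 72Q control neurons (SD, n = 4 each). On these TMM-scaled values the difference was smaller than the spread between libraries. The TMM factors were 0.898 to 0.949 in 25Q and 0.99 to 1.03 in 72Q control libraries. They were 0.991 to 1.02 with shRNA 1 and 1.04 to 1.08 with shRNA 2, and the sum was not computed with other scalings. Within that sum the ratio of Rcor3 to Rcor2 went from 0.696 to 0.937 in the 25Q libraries to 1.38 to 1.69 in the 72Q control libraries. The ratio was 1.44 to 1.56 with shRNA 1 and 1.2 to 1.36 with shRNA 2, so no 72Q library of any group reached down to a 25Q library. Rcor2 accounted for 42.3 ± 3.25% of the sum in 25Q and 31.0 ± 1.82% in 72Q control neurons, and Rcor3 for 34.2 ± 2.02% and 45.7 ± 1.59%. The share of Rcor1 was 23.6 ± 2.15% and 23.3 ± 0.826%.

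**Figure D2:**
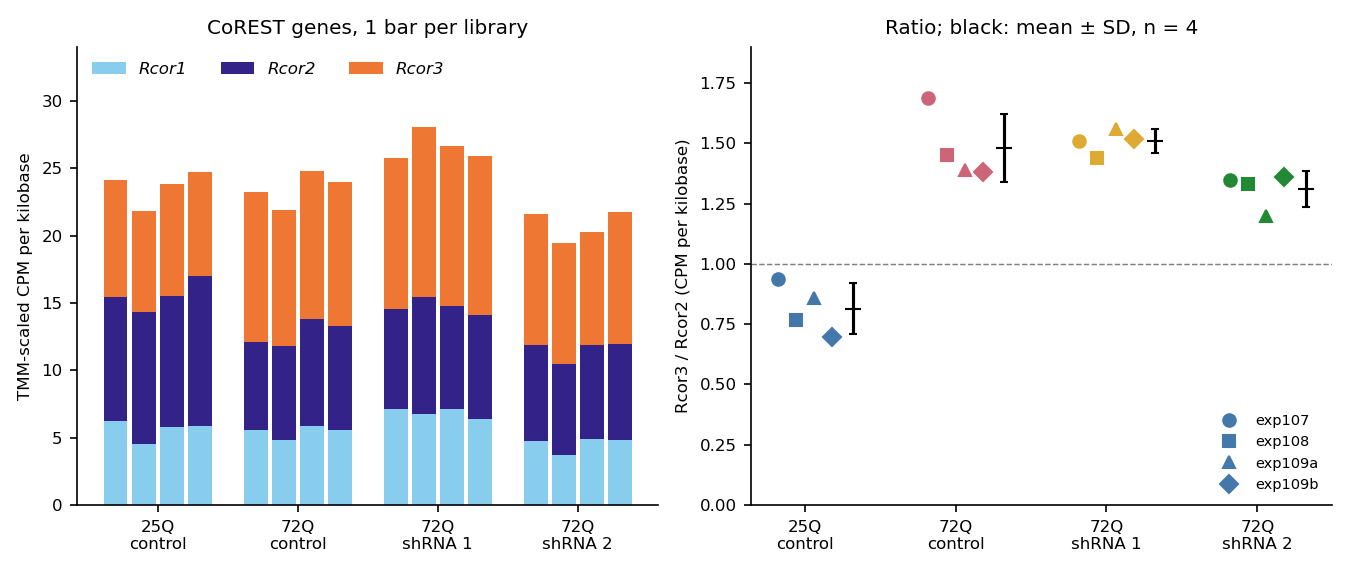
Left, TMM-scaled CPM per kilobase of Rcor1, Rcor2 and Rcor3 stacked for each library, in the order exp107, exp108, exp109a, exp109b within a group. Right, the ratio of Rcor3 to Rcor2 per kilobase in each library, with mean ± SD (n = 4) in black and a dashed line at 1. Every 25Q library lies under 1 and every 72Q library over it. The TMM-scaled sums are highest with shRNA 1 (25.8 to 28.0) and lowest with shRNA 2 (19.5 to 21.7), an order not computed with other scalings.

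Among the enzymes, the largest change was that of Ehmt2 (ENSMUSG00000013787, chr17:34898469-34914052, plus strand). Its libraries were at 155, 149, 150 and 149 CPM in 25Q and 116, 115, 122 and 122 CPM in 72Q controls. The groups lay far apart, and Ehmt2 fell by 0.35 ± 0.045 on the log2 scale (adjusted p = 1.15e-07). Kdm1a (ENSMUSG00000036940, chr4:136550540-136602723, minus strand) stood at 100 to 109 CPM and then 90.8 to 99.7 CPM, and fell by 0.13 ± 0.052 on the log2 scale (adjusted p = 0.0289). Hdac2 (ENSMUSG00000019777, chr10:36974544-37001889, plus strand) stood at 129 to 135 CPM and then 116 to 125 CPM, and fell by 0.13 ± 0.046 on the log2 scale (adjusted p = 0.0146). The calls of Kdm1a and Hdac2 depended on the scaling: with upper-quartile factors the log2 fold changes were -0.07 (adjusted p = 0.234 for Kdm1a and 0.195 for Hdac2). Without scaling beyond totals Kdm1a was at 0 and Hdac2 at 0.004 on the log2 scale, and leaving out the experiment block gave adjusted p = 0.147 and 0.0649. Leaving out exp108 put the Kdm1a change at -0.09 (adjusted p = 0.205).

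Hdac1 (ENSMUSG00000028800, chr4:129516104-129542713, minus strand) had only 24 to 66 reads per library, at 1.47 to 2.81 CPM in 25Q and 2.2 to 3.41 CPM in 72Q control neurons. Its log2 fold change of 0.29 ± 0.2 did not pass the test (interval -0.12 to 0.69, adjusted p = 0.202). The level is uncertain, because the processed pseudogene Gm10093 matches Hdac1 transcripts at 99.377% over 1444 bases and how reads that fit both were treated is not stated in the sources used here. Gm10093 held 141 reads over the 16 libraries, against 737 for Hdac1.

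The SIN3 scaffold genes did not pass the test with TMM factors. Sin3a (ENSMUSG00000042557, chr9:57072040-57128366, plus strand) was at 54 to 64.9 CPM in 25Q and in the narrow range of 64.3 to 65.2 CPM in 72Q control libraries, a log2 fold change of 0.11 ± 0.058 (interval -0.01 to 0.22, adjusted p = 0.118). Sin3b (ENSMUSG00000031622, chr8:72723288-72758203, plus strand) was at 177 to 200 CPM and 188 to 219 CPM, a log2 fold change of 0.09 ± 0.046 (interval 0 to 0.19, adjusted p = 0.0817). Both genes were called higher with other scalings. With upper-quartile factors the log2 fold changes were 0.17 for Sin3a (adjusted p = 0.0104) and 0.16 for Sin3b (adjusted p = 0.00372), and without scaling beyond totals they were 0.24 (adjusted p = 0.000322) and 0.23 (adjusted p = 4.33e-05). Sin3b also passed without the 25Q library of exp107 (0.12 on the log2 scale, adjusted p = 0.0397). Sin3a shares 205 exon bases with Man2c1os and Rcor3 shares 674 with Gm26879, each on the opposite strand, and whether counting used strand is not stated in the sources used here. These partners held 155 and 22 reads in all libraries, against 17804 for Sin3a and 10407 for Rcor3.

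**Figure D3:**
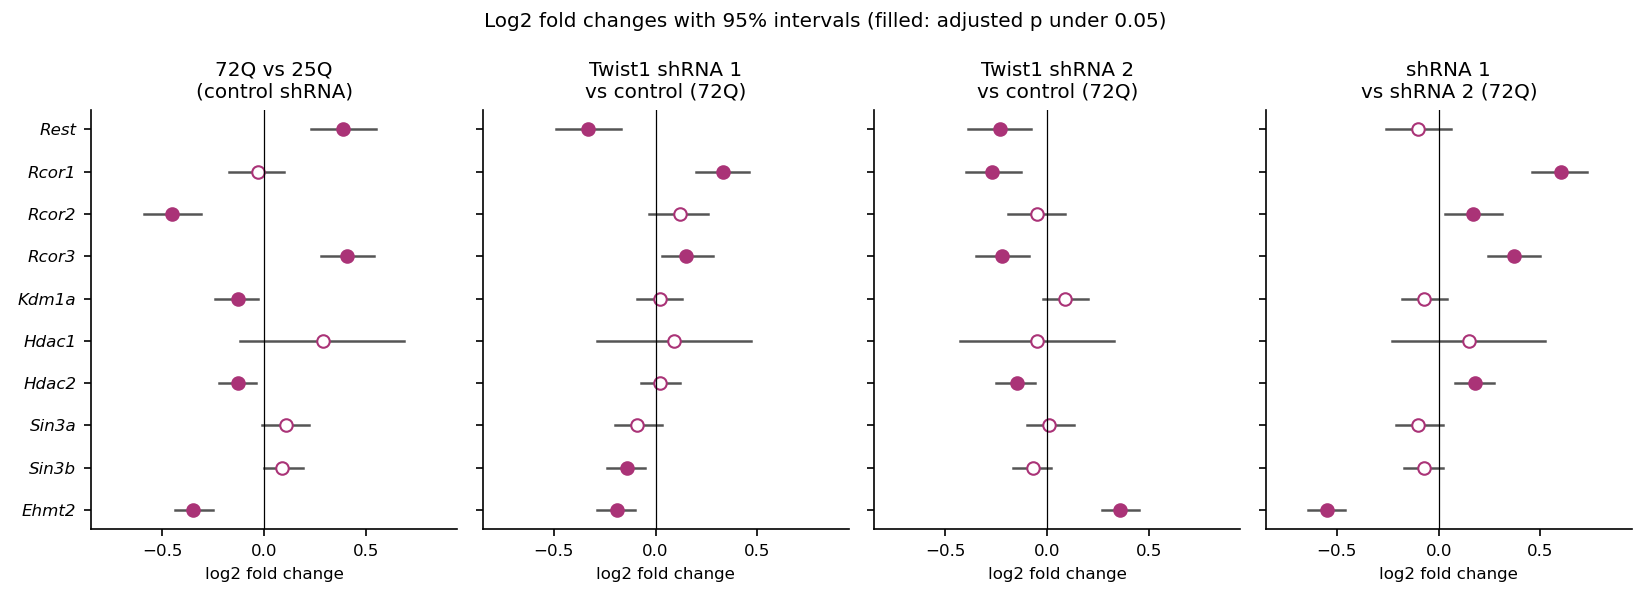
Log2 fold changes (x axis) of the 10 genes in 4 comparisons, with 95% intervals; filled points have an adjusted p under 0.05. Rest was higher in 72Q than in 25Q (0.39) and lower with either Twist1 shRNA than with the control (-0.33 and -0.23), whereas the points of Rcor1 and Ehmt2 lie on opposite sides of 0 for the 2 shRNAs.

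The second question of the design was what Twist1 knockdown did in 72Q neurons. Rest fell with both shRNAs, Rcor1 and Rcor3 rose with shRNA 1 and fell with shRNA 2, and Ehmt2 did the opposite. With shRNA 1 there were 5 members past the threshold, 2 higher and 3 lower, against 46.3% of all genes tested (22.7% higher and 23.6% lower). With shRNA 2 there were also 5, 1 higher and 4 lower, against 41.8% (20.2% higher and 21.5% lower). Both comparisons use the same 4 control libraries, so their changes are not independent of each other, nor of the change between 72Q and 25Q. Some glial and progenitor markers were also called in the same comparisons. Of the 10 oligodendrocyte markers 6 were lower and none higher with shRNA 1 (median log2 fold change -0.255), and 7 were lower and none higher with shRNA 2 (median -0.456). Of the 10 progenitor and proliferation markers 3 and 6 were lower and none higher. Of the 10 astrocyte markers 1 was higher and 1 lower with shRNA 1, and 6 were lower and none higher with shRNA 2. With shRNA 1 the shares called were 60% (oligodendrocyte), 30% (progenitor) and 20% (astrocyte), against 46.3% of all genes. With shRNA 2 they were 70%, 60% and 60%, against 41.8%. The shares of all genes that were lower were 23.6% with shRNA 1 and 21.5% with shRNA 2. Summed levels with shRNA 1 and shRNA 2 were 938 to 1080 and 792 to 965 CPM for the oligodendrocyte list, 346 to 419 and 278 to 331 CPM for the progenitor list, and 2860 to 3090 and 2260 to 2820 CPM for the astrocyte list. The mitochondrial share was 2.39 to 3.26% with shRNA 1 and 2.10 to 2.78% with shRNA 2, against 3.16 to 3.59% in the control. The part of these values in the members' changes was not tested.

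Rest stood at 13.3, 10.9, 12.9 and 14.4 CPM with shRNA 1 and at 14.6, 12.7, 12.6 and 15.4 CPM with shRNA 2. In every experiment both values lay below the 72Q control library, although the ranges of the groups overlapped. Rest fell by 0.33 ± 0.077 on the log2 scale with shRNA 1 (adjusted p = 0.000655) and by 0.23 ± 0.076 with shRNA 2 (adjusted p = 0.0132). The second of these calls was lost without the experiment block (adjusted p = 0.13), without scaling beyond totals (0.0941) and without the control library of exp107 (0.0511) or exp109a (0.0524). It was also lost without the shRNA 2 library of exp109a, where the log2 fold change was -0.17 (adjusted p = 0.106). The shRNAs themselves differed by -0.1 ± 0.078 on the log2 scale (interval -0.26 to 0.06, adjusted p = 0.289).

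Against 25Q, Rest in 72Q neurons had a log2 fold change of 0.05 ± 0.081 with shRNA 1 (interval -0.11 to 0.22, adjusted p = 0.597) and 0.15 ± 0.079 with shRNA 2 (interval -0.01 to 0.32, adjusted p = 0.0911). With shRNA 2 it was called higher than in 25Q under upper-quartile factors (0.25 on the log2 scale, adjusted p = 0.00627) and without scaling beyond totals (0.36, adjusted p = 0.000185). It was also called higher without the shRNA 2 library of exp109a (0.21, adjusted p = 0.0393).

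Rcor1 and Ehmt2 moved oppositely with the 2 shRNAs. Rcor1 stood at 40.5, 38.3, 40.4 and 36.3 CPM with shRNA 1, above every control library, and at 27, 21.1, 27.9 and 27.3 CPM with shRNA 2. It rose by 0.33 ± 0.065 on the log2 scale with shRNA 1 (adjusted p = 9.44e-05) and fell by 0.27 ± 0.067 with shRNA 2 (adjusted p = 0.00168, or 0.0681 without the experiment block). Ehmt2 stood at 99.5, 106, 103 and 106 CPM with shRNA 1, below every control library, and at 154, 153, 158 and 144 CPM with shRNA 2, above every one. It fell by 0.19 ± 0.045 on the log2 scale with shRNA 1 (adjusted p = 0.000718) and rose by 0.36 ± 0.044 with shRNA 2 (adjusted p = 1.13e-07).

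Set against each other, shRNA 1 and shRNA 2 differed in 5 of the 10 members, 4 higher and 1 lower with shRNA 1, where 53.2% of all genes tested differed (27.3% higher and 25.9% lower). Without scaling beyond totals 6 members were called, 2 higher and 4 lower with shRNA 1, where 2967 of all genes were higher and 5164 lower. The log2 difference was 0.6 ± 0.065 for Rcor1 (adjusted p = 5.87e-09) and -0.55 ± 0.045 for Ehmt2 (adjusted p = 1.24e-11). Neither pair of groups overlapped. Rcor3, at 41.3 to 46.3 CPM with shRNA 1 and 30.8 to 35.9 CPM with shRNA 2, differed by 0.37 ± 0.061 (adjusted p = 7.57e-06). Hdac2, at 118 to 127 CPM and 101 to 117 CPM, differed by 0.18 ± 0.046 (adjusted p = 0.00165, or 0.0873 without scaling beyond totals). Rcor2 differed by 0.17 ± 0.069 (adjusted p = 0.0411), a call that ended under most alternatives, for example at 0.109 without the block.

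Smaller changes against the control depended on single libraries or on settings. Rcor3 rose by 0.15 ± 0.061 on the log2 scale with shRNA 1 (adjusted p = 0.0419) and fell by 0.22 ± 0.062 with shRNA 2 (adjusted p = 0.00472). The rise was lost without exp108 (0.09 on the log2 scale, adjusted p = 0.292), without the shRNA 1 library of exp108 (0.1, adjusted p = 0.234) and without the block (adjusted p = 0.113). The fall was lost without the shRNA 2 library of exp109a (-0.15, adjusted p = 0.0709) and without scaling beyond totals (adjusted p = 0.0511). Sin3b fell by 0.14 ± 0.046 with shRNA 1 (adjusted p = 0.0111, or 0.101 without the block), and Hdac2 fell by 0.15 ± 0.046 with shRNA 2 (adjusted p = 0.00772, or 0.18 without scaling beyond totals). Rcor2, Kdm1a, Hdac1 and Sin3a passed the test with neither shRNA, except that Kdm1a was called higher with shRNA 2 under upper-quartile factors (adjusted p = 0.0462) and without scaling beyond totals (0.0109). Rcor2 had log2 fold changes of 0.12 ± 0.07 (interval -0.03 to 0.26) and -0.05 ± 0.07 (interval -0.19 to 0.09) with shRNA 1 and shRNA 2.

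The last comparisons set 72Q neurons with a Twist1 shRNA against 25Q neurons with the control. With shRNA 1 there were 5 members past the threshold, 2 higher and 3 lower, against 57.4% of all genes (28.1% higher and 29.4% lower). With shRNA 2 there were 4, 1 higher and 3 lower, against 63.3% (31.4% higher and 31.8% lower). That split depended on the scaling, with 7 higher and 1 lower without scaling beyond totals. Of all genes 7617 were then higher and 2921 lower, with a median log2 fold change of 0.22. Rcor2 was lower than in 25Q with either shRNA, by -0.33 ± 0.068 (adjusted p = 0.000105) and -0.5 ± 0.068 (adjusted p = 1.76e-07) on the log2 scale. Rcor3 was higher, by 0.56 ± 0.063 (adjusted p = 8.12e-09) and 0.19 ± 0.064 (adjusted p = 0.0117, or 0.121 without exp109b). Ehmt2 was lower with shRNA 1, by -0.54 ± 0.045 (adjusted p = 1.67e-11). With shRNA 2 it differed from 25Q by 0.01 ± 0.044 (interval -0.08 to 0.1, adjusted p = 0.797), but was called higher with upper-quartile factors (0.11, adjusted p = 0.0239) and without scaling beyond totals (0.22, adjusted p = 4.08e-05). Rcor1 was higher than in 25Q with shRNA 1, by 0.3 ± 0.065 (adjusted p = 0.000232), and lower with shRNA 2, by -0.3 ± 0.067 (adjusted p = 3e-04, or 0.253 without scaling beyond totals). Hdac2 was lower with either, by -0.11 ± 0.045 (adjusted p = 0.0452, or 0.129 without the block) and -0.28 ± 0.046 (adjusted p = 3.12e-06).

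A further 36 subunits, partners and regulators of the complex were examined as a list. All of them were tested, and between 72Q and 25Q 13 were higher and 8 lower, which is 58.3% against the 57.1% of all genes. The subunit genes that fell included Zmym3, a zinc-finger partner of the LSD1 complex, by 0.62 ± 0.049 on the log2 scale (179 ± 4.68 to 116 ± 11.6 CPM, adjusted p = 6.74e-12). Hdac3, the deacetylase of the NCoR complex, fell by 0.57 ± 0.05 (87.6 ± 5.95 to 58.9 ± 1.88 CPM, adjusted p = 8.05e-11). Rbbp7, a histone-binding subunit of SIN3 complexes, fell by 0.29 ± 0.049 (adjusted p = 8.64e-06), and Sap130, another SIN3 subunit, rose by 0.36 ± 0.053 (adjusted p = 8.33e-07).

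Some regulators of REST protein or splicing on the list moved as well, and others were not called. Those not called included Usp7 (log2 fold change 0.027, adjusted p = 0.629), Usp15 (-0.061, adjusted p = 0.249) and Ctdspl (-0.03, adjusted p = 0.774). Srrm4, Btrc, Terf2 and Prickle1 were named because of their low adjusted p. Srrm4, the splicing factor that directs a truncated neuronal REST, fell by 0.5 ± 0.062 on the log2 scale, from 68.1 ± 13.1 to 48.2 ± 8.72 CPM (adjusted p = 6.5e-08). Btrc, which marks REST for degradation, rose by 0.38 ± 0.053 (adjusted p = 5.79e-07), and Terf2, which protects REST from it, rose by 0.34 ± 0.05 (adjusted p = 8.48e-07). Prickle1, which binds REST and affects its entry into the nucleus, fell by 0.47 ± 0.066 (adjusted p = 4.73e-07). Outside the naming rule, Hap1, the huntingtin partner in the cytoplasmic complex, was looked up after its value was seen. It had the largest rise on the list, 1.28 ± 0.15 (74.7 ± 20.9 to 182 ± 35.2 CPM, adjusted p = 2.88e-05).

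With shRNA 1, 11 of the 36 were higher and 9 lower than with the control, which is 55.6% against the 46.3% of all genes. With shRNA 2, 4 were higher and 11 lower, or 41.7% against 41.8%, a share at the background. Hdac3 rose with shRNA 1 by 0.57 ± 0.05 (adjusted p = 9.44e-11), to 87.7 ± 5.58 CPM, beside the 87.6 ± 5.95 CPM of 25Q. With shRNA 2 it rose by 0.199 ± 0.051 (adjusted p = 0.00198), to 67.9 ± 5.76 CPM. With shRNA 1 the demethylase gene Kdm5c rose by 0.44 ± 0.045 (adjusted p = 1.92e-09), and Cbx5, a heterochromatin protein gene, fell by 0.39 ± 0.044 (adjusted p = 1.13e-08). Neither was called with shRNA 2, at log2 fold changes of 0.025 (adjusted p = 0.703) for Kdm5c and 0.046 (adjusted p = 0.43) for Cbx5. Ehmt1, which encodes the partner of G9a, fell with both shRNAs, by 0.47 ± 0.048 (adjusted p = 2.25e-09) and 0.31 ± 0.048 (adjusted p = 5.71e-06). Smarca4, the ATPase gene of BAF chromatin remodelling complexes, fell with shRNA 2 by 0.83 ± 0.053 (529 ± 33.9 to 298 ± 40.4 CPM, adjusted p = 2.14e-13). Smarcc2, another BAF subunit gene, fell by 0.33 ± 0.045 (adjusted p = 7.04e-07) and Ctdsp1, a phosphatase that stabilises REST, by 0.42 ± 0.077 (adjusted p = 4.88e-05). With shRNA 1 the log2 fold changes were -0.475 ± 0.052 for Smarca4 (adjusted p = 1.16e-08) and 0.151 ± 0.045 for Smarcc2 (adjusted p = 0.00624). That of Ctdsp1 was -0.118 ± 0.076 (adjusted p = 0.211).

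Neuronal genes known as REST targets formed the last list, with 55 genes of which 53 were tested. The RE1 core was searched in the RefSeq promoters (GRCm38.p6, 250 bases before to 50 after the start) as CAGCACC, 2 free bases and GGACAG, on both strands and with at most 1 mismatch in the 13 fixed letters. It was found in 4 of the 52 promoters that the table held for 35 target genes, and in 61 of all 32851 promoters, or 0.186%. The exact core was in none of the 52, and in 12 of all promoters, or 0.0365%. None of the 8 members with a promoter held it. The 4 stretches are shown because they come closest to the letters REST is known to read. Each departs from the core at 1 of the 13 letters, and the matching core letters are in capitals. Each is given 5′ to 3′ on the strand named.
Celsr3, chr9:108825918-108825938, plus strand: ttCAGCACCgtGGgCAGcact
Gria2, chr3:80802989-80803009, plus strand, antisense to the gene: tttAGCACCgcGGACAGcgct
Rph3a, chr5:121009614-121009634, plus strand, antisense to the gene: gtCAGtACCacGGACAGcacc
Syn1, chrX:20921130-20921150, minus strand: ttCAGCACCgcGGtCAGagcc
The 50 bases after the start were found in GENCODE transcripts of the gene for Gria2, Rph3a and Syn1, but not for Celsr3. A match is a description of the sequence, not a site shown to be bound. These genes did not move alike between 72Q and 25Q. Gria2, an AMPA receptor subunit gene, fell by 1.0 ± 0.05 on the log2 scale (adjusted p = 4.89e-16), and Rph3a, a synaptic vesicle protein gene, by 1.28 ± 0.12 (adjusted p = 2.61e-06). Celsr3, an axon guidance cadherin gene, fell by 0.2 ± 0.054 (adjusted p = 0.00245). Syn1, a synaptic vesicle gene often used to show REST repression, had a log2 fold change of 0.08 ± 0.06 (adjusted p = 0.283).

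Over the list, 33 of the 53 targets were lower and 5 higher in 72Q than in 25Q, which is 71.7% against 57.1% of all genes. The median log2 fold change was -0.241, against 0.03 over all genes, and 17 targets were lower by at least 0.5 on the log2 scale, where 12.6% of all genes were. The count went from 5 higher and 33 lower to 13 and 26 without scaling beyond totals. All genes called then went from 4431 higher and 4197 lower to 6781 and 2952. The medians in that setting were -0.106 for the targets and 0.163 for all genes. Not every target was lower. Chrnb2, a nicotinic receptor subunit gene picked out after its value was seen, rose by 0.42 ± 0.054 on the log2 scale (adjusted p = 1.04e-07).

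The targets with the lowest adjusted p all fell. Syt4, a vesicle calcium sensor gene, went from 323 ± 26.6 to 166 ± 21.6 CPM, a fall of 0.97 ± 0.051 on the log2 scale (adjusted p = 1.35e-15). Grin2a, an NMDA receptor subunit gene, went from 25 ± 4.9 to 11.7 ± 1.81 CPM and fell by 1.09 ± 0.08 (adjusted p = 1.43e-12). Cacna1h, a T-type calcium channel gene, fell by 1.09 ± 0.063 (adjusted p = 1.82e-13). The exocytosis genes Cplx2 and Unc13a fell by 0.84 ± 0.059 (adjusted p = 7.55e-12) and 0.57 ± 0.048 (adjusted p = 2.8e-11). The adhesion gene Nrxn3 fell by 0.61 ± 0.056 (adjusted p = 2.39e-10), and the neuronal tubulin gene Tubb3 by 0.87 ± 0.066 (adjusted p = 2.79e-10).

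**Figure D4:**
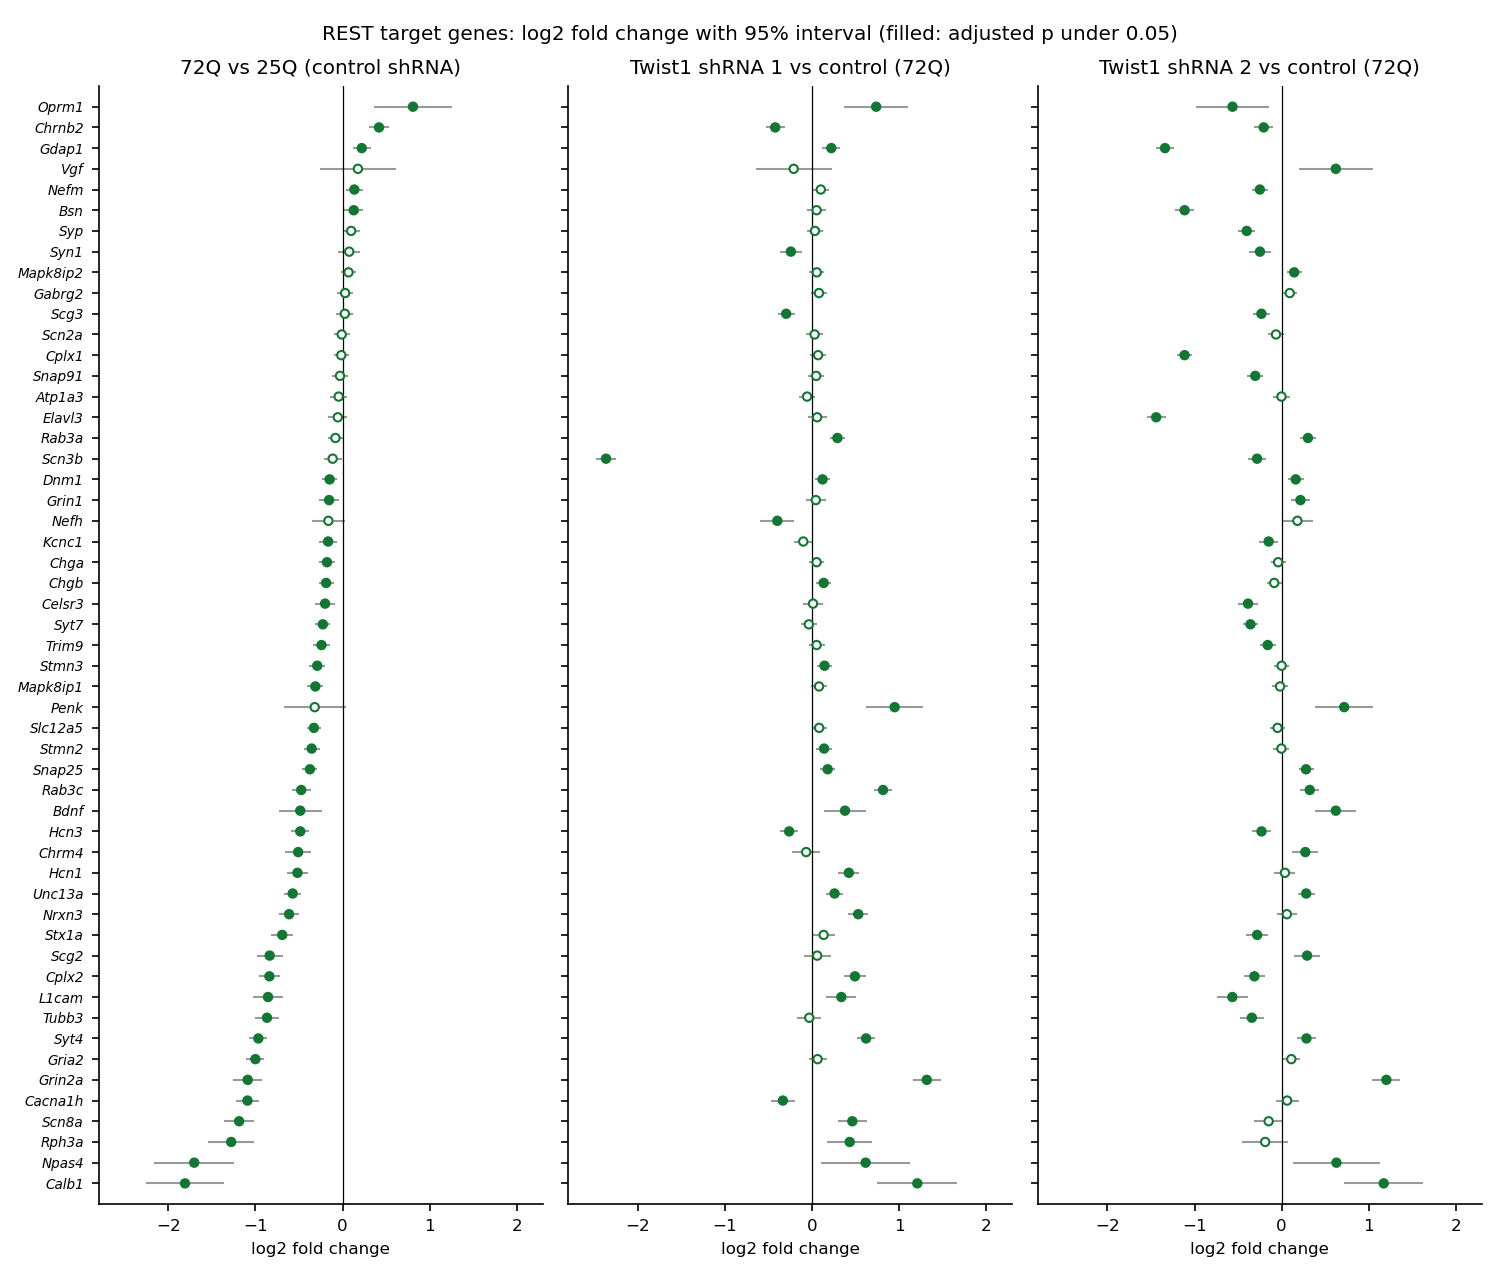
Log2 fold changes (x axis) with 95% intervals of the 53 tested REST target genes (rows, in the order of the first panel) between 72Q and 25Q, and for Twist1 shRNA 1 and shRNA 2 against the control in 72Q. Filled points have an adjusted p under 0.05. In the first panel 33 filled points lie left of 0 and 5 right of it; in the others the filled points fall on both sides, 22 right and 7 left with shRNA 1, and 16 right and 21 left with shRNA 2.

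Markers of neurons in general moved with the targets. Of 10 neuron markers, of which Tubb3 and Snap25 are also on the target list, 9 were lower and 1 higher in 72Q, and their summed level was 7610 to 8450 CPM in 25Q and 4670 to 5780 CPM in 72Q control libraries. It was 5280 to 5850 CPM with shRNA 1 and 4690 to 5650 CPM with shRNA 2. These counts stand beside the 29.3% of all genes that were higher and the 27.8% that were lower. Of the 10 astrocyte markers 5 were higher in 72Q and none lower, at 2610 to 2830 CPM and 2750 to 3120 CPM in sum. That is 50% higher, against 29.3% of all genes. Of the 10 progenitor and proliferation markers 6 were higher and none lower, or 60% against the same 29.3%, at 294 to 395 CPM and 351 to 442 CPM. The oligodendrocyte list had 3 higher and 2 lower of 10, again 50%, at 1070 to 1240 CPM in 25Q and 1140 to 1330 CPM in 72Q. Of the microglia list 3 of 10 were tested, with log2 fold changes of -0.08 to 0.51. Of the endothelial, mural and meningeal list 6 of 10 were tested and 3 were lower, or 50% of those tested, against 27.8% of all genes. The part of these cell types in the changes of Rest and its targets was not tested.

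Twist1 shRNAs moved the targets in a mixed way. With shRNA 1, 22 were higher and 7 lower than with the control, which is 54.7% against the 46.3% of all genes, and the median log2 fold change was 0.079, against -0.005 for all genes. With shRNA 2, 16 were higher and 21 lower, or 69.8% against 41.8%, and the median was -0.04, against 0.002. Grin2a rose by 1.32 ± 0.079 with shRNA 1 (29.5 ± 7.9 CPM, adjusted p = 1.53e-14) and by 1.2 ± 0.079 with shRNA 2 (26.9 ± 3.95 CPM, adjusted p = 2.57e-13). Calb1, the gene of the calcium-binding protein calbindin, was picked out after its values were seen. From 55.8 ± 6.31 CPM with 25Q it went to 16.3 ± 6.27 CPM in the 72Q control, a fall of 1.81 ± 0.2 (adjusted p = 2.19e-05). It rose by 1.21 ± 0.2 with shRNA 1 (37.3 ± 6.96 CPM, adjusted p = 0.000711) and by 1.17 ± 0.2 with shRNA 2 (36.4 ± 8.12 CPM, adjusted p = 0.000993). Syt4 rose by 0.62 ± 0.051 (adjusted p = 2.38e-11) and 0.29 ± 0.051 (adjusted p = 3.92e-05). Gria2, whose promoter is shown above, had log2 fold changes of 0.06 ± 0.05 (adjusted p = 0.324) and 0.11 ± 0.05 (adjusted p = 0.0773).

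Other targets with the lowest adjusted p differed between the shRNAs. Scn3b, a sodium channel subunit gene, fell by 2.37 ± 0.056 on the log2 scale with shRNA 1, from 307 ± 13.1 to 59.8 ± 6.94 CPM (adjusted p = 1.68e-23). With shRNA 2 it was at 254 ± 22.7 CPM, a fall of 0.28 ± 0.051 (adjusted p = 4.76e-05), and the shRNAs differed by -2.08 ± 0.056 (adjusted p = 1.37e-22). Rab3c, a vesicle GTPase gene, rose by 0.81 ± 0.052 with shRNA 1 (adjusted p = 1.03e-13) and by 0.32 ± 0.052 with shRNA 2 (adjusted p = 9.15e-06). With shRNA 2, Elavl3, a neuronal RNA-binding protein gene, went from 541 ± 52.8 to 201 ± 32.1 CPM, a fall of 1.44 ± 0.054 (adjusted p = 3.82e-18). Its log2 fold change with shRNA 1 was 0.06 ± 0.053 (adjusted p = 0.388), and the shRNAs differed by 1.5 ± 0.054 (adjusted p = 2.96e-19). Gdap1, a mitochondrial fission gene, fell by 1.34 ± 0.052 with shRNA 2, Cplx1, a complexin gene, by 1.11 ± 0.044 (adjusted p = 3.82e-18 each) and Bsn, an active-zone scaffold gene, by 1.11 ± 0.055 (adjusted p = 1.93e-15).

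Among the 13589 genes with a mean of at least 1 CPM, those whose log2 CPM followed Rest most closely over the 16 libraries were Rbm14 (Pearson's r = 0.941), Reep6 (0.909), Rcan3 (0.896), Tfcp2l1 (0.894) and Mob3b (0.893). The points share group and experiment, and r is given as a description. Rbm14, a nuclear RNA-binding protein gene, stood at 44.7 to 56.1 CPM in 25Q, 58.9 to 86.8 in 72Q control, 54.5 to 65.9 with shRNA 1 and 55.5 to 74.7 CPM with shRNA 2. Tfcp2l1, a transcription factor gene, stood at 2.08 to 4.45, 7.18 to 17.0, 3.79 to 6.99 and 2.79 to 7.9 CPM in the same order. Of the corepressor genes, Sin3a had the highest r with Rest, 0.629, and Rcor2 the lowest, -0.494, with Rcor3 at 0.352 and Rcor1 at 0.007.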

How the data were processed

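STAR 2.0.4b aligned the reads and featureCounts 1.45 (Subread) counted them per gene on GRCm38, per the submitters' processing notes. Strandedness, multimapping and the annotation are not stated in the sources used here. The authors deposited raw counts per Ensembl gene, and each test used these counts. Deposited CPM was the count over the library total (within 2.5e-11), and deposited RPKM was this value per kilobase of listed length (within 4.9e-11); neither entered a test. Symbols came from GENCODE M21, which names 40254 of the 41388 genes, and coordinates from the deposited files.

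Tests used the quasi-likelihood F test of edgeR 4.0.16 in R 4.3.3 (filterByExpr, TMM factors, robust glmQLFit). The model had terms for group and experiment over all 16 libraries. Each adjusted p is a Benjamini-Hochberg value over the 15103 genes tested, and 0.05 was the threshold. A prior count of 2 entered each log2 fold change. The common biological coefficient of variation was 5.24%. Levels are TMM-scaled CPM.

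Groups came from the sample titles. The experiment label in the descriptions served as the replicate block, since same-experiment libraries shared their deviations from group means: correlations across genes were 0.223 to 0.612 within an experiment, and averaged -0.157 to -0.11 otherwise. Title numbers follow the experiment labels in the 72Q groups, but in 25Q only number 2 (exp109b) does so. Between replicates the chi-square per degree of freedom was 2.85 to 22.6, above sampling noise, so none was taken for a repeat of another. The pair exp109a and exp109b was the closest in 25Q (2.85), with shRNA 1 (4.81) and with shRNA 2 (6.38). In the 72Q control it was at 9.46, against 6.38 for exp107 and exp109a. The labels do not say whether exp109a and exp109b are parts of 1 experiment. Separate cultures are not stated for the replicates, and p-values then cover only the spread of these samples, which may be technical.

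The members, the lists and the naming rule were chosen with earlier results of these data known. The rule took the 10 members, Twist1 and Htt, the 8 genes of each list with the lowest adjusted p between 72Q and 25Q, 4 of each with each shRNA, and the 5 genes most correlated with Rest. Htt itself changed by -0.18 ± 0.053 on the log2 scale in 72Q against 25Q (adjusted p = 0.00528), and it is not stated whether its count includes reads of the transduced exon. Near-identical transcripts were sought with blastn 2.17.0 (at least 90% identity over 200 bases), and promoters and microRNAs came from RefSeq tables. Alternatives were other blocks and scalings, no low-count filter, the Wald test of DESeq2 1.42.0, fits to the compared groups alone and leaving out libraries or experiments.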

Additional observations from a re-analysis of the deposited data

Results flagged for a closer look

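Among the 40 sets of 4 libraries (10 members in 4 groups), 2 held a library whose gap to its nearest neighbour exceeded, as a share of the group's range, the critical value of Dixon's test. Chance flags about 5% of such sets. Rcor1 with Twist1 shRNA 2 was at 21.1 CPM in exp108, where the other libraries lay at 27 to 27.9 CPM. Rcor1 was also lowest in exp108 in 25Q (25.6 CPM) and in 72Q control neurons (27.4 CPM). Kdm1a with Twist1 shRNA 2 was at 116 CPM in exp107, where the others lay at 95 to 97.9 CPM.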

How the results depend on the processing

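Rest, Rcor2, Rcor3 and Ehmt2 kept their calls between 72Q and 25Q under every alternative listed in the methods, as did Rest, Rcor1 and Ehmt2 with shRNA 1 and Ehmt2 with shRNA 2. With no replicate block the genes called went from 6999 to 4561 with shRNA 1 and from 6307 to 3621 with shRNA 2, and the members called from 5 to 3 and from 5 to 2. Blocking by the number in the titles left 3 members called with shRNA 1. Without scaling beyond totals 3 members were called with shRNA 2 against the control, 2 higher and 1 lower. Between 72Q with shRNA 1 and 25Q, 6 were called without such scaling, 4 higher and 2 lower. For 72Q with shRNA 2 against 25Q, 8 members were called without such scaling, 7 higher and 1 lower. With upper-quartile factors 8 were called there, 5 higher and 3 lower, instead of 4 with TMM factors, 1 higher and 3 lower. The median of all genes in that comparison then moved from 0.014 to 0.22 and 0.111 on the log2 scale. Upper-quartile factors put the higher share of calls against 25Q at 61.2% (48.9% with TMM) with shRNA 1 and at 61.5% (49.7%) with shRNA 2. Without scaling beyond totals it was 66.5% and 72.3%, and it was 65.3% (48.5%) for shRNA 2 against the control and 36.5% (51.3%) for shRNA 1 against shRNA 2.

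A change of sign was counted as a reversal only for a member called under the main settings or under the alternative. Such reversals occurred only without scaling beyond totals. They were Hdac2 at 0.004 between 72Q and 25Q and at 0.02 for 72Q with shRNA 1 against 25Q. The other was Kdm1a at 0.164 for 72Q with shRNA 2 against 25Q (adjusted p = 0.00631). The cause was not tested.

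Leaving out 1 library or experiment gave 7441 to 8429 genes called between 72Q and 25Q, 5988 to 6638 with shRNA 1, 4977 to 5806 with shRNA 2 and 6887 to 7533 between the shRNAs. Against 25Q it gave 7560 to 8321 with shRNA 1 and 8562 to 9208 with shRNA 2. Members called ranged, in the same order, from 4 to 7, 3 to 5, 3 to 5, 4 to 5, 4 to 5 and 3 to 6. Of 720 results for single members so obtained, 655 kept their call, 53 lost it and 12 gained one, and of 480 under other settings 421 kept it, 35 lost it and 21 gained one.

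List counts under other scalings, without the block and without each experiment were added after the data were seen. Without the block the targets were 2 higher and 27 lower between 72Q and 25Q, 13 and 6 with shRNA 1, and 9 and 11 with shRNA 2. All genes called went, in the same order, from 8628 to 6526, from 6999 to 4561 and from 6307 to 3621. Those without the block were 3235 higher and 3291 lower, 2244 and 2317, and 1691 and 1930. Hdac1 had 24 to 66 reads a library, and the part of depth in its missing calls was not tested.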

Other observations

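The microRNA miR-9 is known to act on transcripts of Rest and of CoREST, from opposite arms of its hairpin. Mature microRNAs were not measured, and the host transcripts below were looked up after their values were seen. The RefSeq sequences of the 2 arms follow, with the seed (bases 2 to 8) in capitals.
mmu-miR-9-5p: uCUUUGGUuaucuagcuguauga
mmu-miR-9-3p: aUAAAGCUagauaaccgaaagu
The host transcript Mir9-3hg went from 25 ± 4.41 CPM in 25Q to 31.6 ± 5.04 CPM in 72Q control neurons (SD, n = 4 each), a log2 fold change of 0.34 (adjusted p = 7.08e-05). Against the control it changed by -0.13 with shRNA 1 (adjusted p = 0.117) and by 0.27 with shRNA 2 (adjusted p = 0.000861). The hosts of miR-124, which is repressed by REST in non-neuronal cells, were lower in 72Q than in 25Q. Mir124a-1hg went from 26.4 ± 7.02 to 15.5 ± 2.41 CPM (-0.75 on the log2 scale, adjusted p = 3.89e-09), and Mir124-2hg from 39.2 ± 5.49 to 27.7 ± 2.75 CPM (-0.49, adjusted p = 8.82e-08). Neither passed the test with either shRNA against the control.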
